A study of Mus musculus with 6 samples.

Results

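The Slc25 genes of this comparison are 46 of the 19938 genes that a probe set named singly, chosen by symbol (Slc25a followed by a number) with 1 probe set per gene, the one with the highest mean over all arrays. Values are log2 expression after RMA, a normalization that brings arrays to a common scale, although the deposited arrays still differed in median (4.56 to 4.76) and SD (2.04 to 2.20). A difference of 1 is a doubling, every change is relative to the rest of the array, and a change in the whole RNA content of an oocyte would not be seen. The tested oocytes came from females homozygous for a chemically induced (ENU) Marf1 allele, Marf1 ENU/ENU, and the others from Marf1+/+ wild-type females, with 3 arrays each. Females of both genotypes were of the strain C57BL/6J;C3HeB/FeJ, received 5 IU of eCG at 21 days of age and gave fully-grown oocytes 46 hours later, at 23 days. The sources used here do not give the number of females or oocytes behind a sample, and fewer cells of a type cannot be told apart from less RNA per cell. Nothing says that the 3 samples of a genotype came from separate animals, so p-values cover only the spread from sample to sample, which may be technical.

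Slc25 proteins form the main family of solute carriers of the mitochondrial inner membrane. Each exchanges a small molecule (ADP and ATP, phosphate, an organic acid, an amino acid, a nucleotide or a cofactor) between cytosol and matrix, and a few members sit in the outer membrane or in peroxisomes. They are made in the cytosol without a cleavable targeting signal in most cases, are bound by receptors of the outer membrane and are inserted by the TIM22 complex. Fully-grown oocytes hold very many mitochondria and use pyruvate as their main fuel.

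Marf1, the mutated gene, stood at 5.98, 6.40 and 6.16 in the mutant arrays, against 9.21, 9.16 and 9.31 in wild type (mean 6.18 ± 0.21 in the mutant and 9.23 ± 0.08 in wild type, SD, n = 3 each). Where its probes lie relative to the mutation is not stated in the labels. Mutant replicate 3 stood apart from the other arrays, with correlations over all probe sets of 0.97 to 0.973 with the other mutants, against 0.984 to 0.985 among wild-type arrays. All 12 oocyte markers, such as Zp3 and Gdf9, lay above 4.52, which is the 95th percentile over 1203 olfactory, vomeronasal and trace amine receptor genes (means over all arrays). That value is called the receptor-gene level here, and signals below it are called dim. No oocyte marker passed the test (0 of 12, with 1 lower at an unadjusted p under 0.05 in limma). For comparison, 16.3% of all genes above the receptor-gene level passed. At an unadjusted limma p under 0.05, 13.5% of all genes were lower.

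Of the 46 Slc25 genes, 5 were higher and 1 was lower in Marf1-mutant oocytes at a limma adjusted p under 0.05. Slc25a36, Slc25a30, Slc25a46, Slc25a3 and Slc25a40 rose, and Slc25a48 fell. The share of 13.0% called compares with 10.4% of all genes tested, so the family as a whole stood near the background. By direction, 6.40% of all genes rose and 4.04% fell. The median log2 fold change was -0.018 over the 46 genes and -0.040 over all genes. Of the 34 Slc25 genes whose mean lay above the receptor-gene level 6 were called (17.6%), where 16.3% of all genes above that level were (9.98% higher and 6.32% lower). The other 12 lay below it in both genotypes, and limma called none of these (0 of 12). At an unadjusted limma p under 0.05 there were 3, where the share of all genes was 24.5%. Of the 2082 genes called among all genes, 2012 lay above that level, so calls below it were rare.

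Slc25a36, a carrier of pyrimidine nucleotides that serves mitochondrial DNA and RNA synthesis, had the largest change of the family. It stood at 9.04, 9.18 and 8.67 in mutant replicates 1 to 3, against 6.59, 7.17 and 6.42 in wild-type replicates 1 to 3. The lowest mutant array lay 1.50 above the highest wild-type array. The means were 8.96 ± 0.26 in the mutant and 6.73 ± 0.39 in wild type, which is 4.71-fold higher in the mutant (log2 fold change 2.24, SE 0.23, limma adjusted p = 0.00139). A second probe set naming Slc25a36 gave 8.29 ± 0.36 in the mutant and 5.64 ± 0.51 in wild type, a log2 fold change of 2.64 (SE 0.29, limma adjusted p = 0.00168). In the order of probe set IDs, the 8 nearest singly named probe sets around that second one name genes of another chromosome than that of Slc25a36, and which locus it reads was not tested.

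Slc25a30, a relative of the uncoupling proteins first described in kidney, stood at 7.58, 7.76 and 7.89 in the mutant arrays, against 5.28, 5.85 and 6.02 in wild type. All mutant arrays lay at least 1.56 above all wild-type arrays. Slc25a30 was thus 4.07-fold higher (log2 fold change 2.03, SE 0.21, limma adjusted p = 0.00147).

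Slc25a46 encodes a carrier-like protein of the outer membrane that takes part in mitochondrial fission. Its level was 6.00, 5.92 and 6.03 in the mutant arrays, against 3.69, 4.44 and 4.72 in wild type. The mutant arrays were nearly equal, while the wild-type arrays were spread on both sides of the receptor-gene level with a mean below it (4.28 ± 0.53). The 3.25-fold rise (log2 fold change 1.70, SE 0.25, limma adjusted p = 0.00706) may therefore be a lower bound.

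Slc25a3 is the phosphate carrier, which supplies the phosphate that ATP synthase joins to ADP and also brings copper to the matrix. It stood at 7.12, 7.40 and 7.33 in the mutant arrays, against 6.19, 6.20 and 6.33 in wild type, with no overlap. Slc25a3 was 2.06-fold higher (log2 fold change 1.04, SE 0.14, limma adjusted p = 0.00423).

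Slc25a40, with its relative Slc25a39 a carrier needed for glutathione in mitochondria, stood at 7.79, 7.43 and 7.52 in the mutant arrays, against 6.79, 6.49 and 6.79 in wild type. It was 1.85-fold higher in the mutant (log2 fold change 0.89, SE 0.16, limma adjusted p = 0.0165). The call was lost without mutant replicate 1 or without any of the wild-type arrays, at limma adjusted p of 0.0529 to 0.0627. A second, dimmer probe set naming Slc25a40 had overlapping groups and a log2 fold change of 0.64 (SE 0.29, limma adjusted p = 0.279). Its 8 nearest singly named probe sets in ID order name genes of another chromosome.

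Slc25a48, a carrier linked to the import of choline, was the member that fell. It stood at 7.58, 7.67 and 7.63 in the mutant arrays, against 8.37, 8.33 and 8.88 in wild type. The highest mutant array lay 0.66 below the lowest wild-type array. Its log2 fold change was -0.90 (SE 0.18, 1.87-fold lower, limma adjusted p = 0.023), and the call was lost without mutant replicate 1 or 2 or wild-type replicate 1 or 3 (limma adjusted p of 0.0568 to 0.0768).

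**Figure D1:**
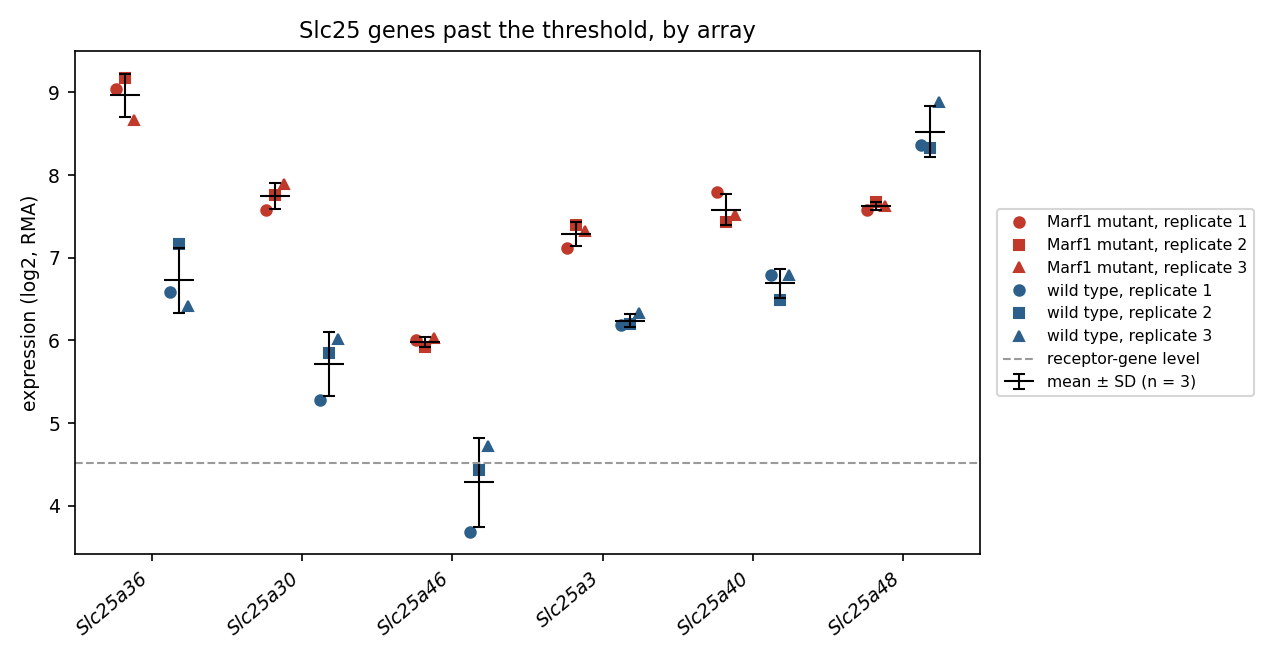
Log2 expression of the 6 Slc25 genes past the threshold on each array, with mutant arrays to the left of wild-type arrays for each gene, symbols for replicate numbers and bars for mean ± SD (n = 3 each). In each of the 6 genes the groups do not overlap, and only in Slc25a46 does a group mean (4.28 in wild type) lie below the receptor-gene level of 4.52, drawn as a dashed line.

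The promoters of Slc25a36, Slc25a30 and Slc25a3, which are among the genes that rose, are shown with that of Slc25a48, the gene that fell, so that the start regions of changed members can be compared. They run from 250 bases before to 50 bases after the start of the RefSeq gene (GRCm38.p6), 5′ to 3′ on the gene's strand, at chr9:97110992-97111291 (minus), chr14:75786988-75787287 (minus), chr10:91123918-91124217 (minus) and chr13:56438105-56438404 (plus). Capitals mark matches, on either strand, to any of 6 motifs. These are the Nrf1-type palindrome (GCGC, any 2 bases, then GCGC), the cAMP response element with the letters TGACGTCA, and the E-box with the letters CACGTG. The others are the CCAAT box, named by its letters, the GC box with the letters GGGCGG and the TATA box with the letters TATAAA.
Slc25a36: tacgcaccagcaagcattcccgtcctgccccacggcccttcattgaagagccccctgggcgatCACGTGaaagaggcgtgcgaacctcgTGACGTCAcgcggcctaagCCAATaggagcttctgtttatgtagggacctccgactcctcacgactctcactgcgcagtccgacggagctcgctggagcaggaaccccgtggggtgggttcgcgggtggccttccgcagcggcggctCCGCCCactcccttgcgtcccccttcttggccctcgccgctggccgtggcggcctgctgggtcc
Slc25a30: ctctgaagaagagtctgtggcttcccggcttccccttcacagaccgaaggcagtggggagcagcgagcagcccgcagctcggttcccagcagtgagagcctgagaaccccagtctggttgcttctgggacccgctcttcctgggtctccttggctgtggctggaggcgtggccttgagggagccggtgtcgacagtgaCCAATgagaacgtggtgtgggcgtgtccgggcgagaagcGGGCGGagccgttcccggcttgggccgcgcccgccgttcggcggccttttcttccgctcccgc
Slc25a3: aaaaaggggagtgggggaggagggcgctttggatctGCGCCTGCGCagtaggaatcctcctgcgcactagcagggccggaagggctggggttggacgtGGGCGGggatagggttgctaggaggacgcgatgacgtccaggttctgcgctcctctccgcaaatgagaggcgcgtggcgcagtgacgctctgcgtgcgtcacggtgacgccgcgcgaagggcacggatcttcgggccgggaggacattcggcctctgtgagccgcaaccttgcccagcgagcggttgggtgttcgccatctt
Slc25a48: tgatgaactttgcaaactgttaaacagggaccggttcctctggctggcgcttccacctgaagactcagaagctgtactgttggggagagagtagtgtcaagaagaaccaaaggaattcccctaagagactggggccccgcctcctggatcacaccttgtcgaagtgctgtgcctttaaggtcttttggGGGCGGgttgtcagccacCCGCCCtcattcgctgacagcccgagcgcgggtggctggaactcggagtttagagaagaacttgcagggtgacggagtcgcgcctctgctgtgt
The Slc25a36 window holds a cAMP response element, an E-box, a CCAAT box and a GC box, 1 of each, and none of these matches overlap. That of Slc25a30 holds 1 CCAAT box and 1 GC box, that of Slc25a3 1 Nrf1-type palindrome and 1 GC box, and that of Slc25a48 2 GC boxes. GC made up 66.7%, 66.7%, 65.7% and 56.3% of these windows, in the order printed. RefSeq promoters were matched for 36 of the 46 Slc25 genes, 46 windows in all. The GC box was in 82.6% of these windows and in 35.7% of all 32851 promoter windows of the same length, the CCAAT box in 47.8% and 37.4%, and the E-box in 17.4% and 7.15%. The Nrf1-type palindrome was in 6.52% of the Slc25 windows and 6.23% of all, the cAMP response element in 4.35% and 1.79%, and the TATA box in 4.35% and 13.6%. The Slc25 windows were also richer in GC (median 59.3%, against 52.7% of all), and its part in these shares was not tested.

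Among the 8 adenine nucleotide and phosphate carriers 1 rose (Slc25a3) and 0 fell, with 2 higher and 1 lower at an unadjusted p under 0.05 in limma. For comparison with this and the other role groups, 10.4% of all genes were called (6.40% higher and 4.04% lower). At an unadjusted p under 0.05 in limma, the share of all genes was 24.5% (13.5% lower). The counts by role group describe single genes, and no role group was tested against these shares. The ADP/ATP exchangers did not pass the test. Slc25a4, the form of heart and muscle, stood at 8.22, 8.46 and 8.28 in the mutant arrays, against 8.41, 8.32 and 8.30 in wild type, with overlapping groups (log2 fold change -0.02, 95% interval -0.34 to 0.29). Slc25a31, the germ cell form known from testis, had a log2 fold change of -0.10 (95% interval -0.50 to 0.30).

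Slc25a5, the widely expressed ADP/ATP exchanger, was read by 3 probe sets. The one used stood at 7.84, 8.32 and 8.30 in the mutant arrays, against 8.17, 8.58 and 8.73 in wild type (log2 fold change -0.34, 95% interval -0.82 to 0.14). The other 2 gave -0.33 and -0.30, and the groups overlapped in all 3 (limma adjusted p of 0.451, 0.378 and 0.412, the used one first). By ID order, the used probe set lies among genes of another chromosome than that of Slc25a5, and the probe set that gave -0.33 lies among genes of its own.

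The ATP-Mg/phosphate carriers set the adenine nucleotide pool of the matrix, and none of the 4 measured passed the test (0 of 4 in limma, with Slc25a25 higher and Slc25a24 lower at an unadjusted p under 0.05). Slc25a25 had a log2 fold change of 0.43 and all mutant arrays (5.29 to 5.47) above all wild-type arrays (4.68 to 5.17), but missed the threshold (limma adjusted p = 0.192). Slc25a24 had -0.53 and all mutant arrays (3.10 to 3.67) below all wild-type arrays (3.82 to 4.17), also short of the threshold (limma adjusted p = 0.163) and below the receptor-gene level in both genotypes. Slc25a23 and Slc25a41 had -0.20 and -0.03. The change of Slc25a24 minus that of Slc25a25 was -0.96, with no overlap of the groups (exact permutation p = 0.1, the smallest possible, adjusted p = 0.16 over 8 pairs of related carriers).

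Of the 3 relatives of the uncoupling proteins 1 rose (Slc25a30) and 0 fell, the same at an unadjusted p under 0.05 in limma. Slc25a14, a close relative of Slc25a30 known from brain, had equal group means, at 9.63, 9.70 and 9.35 in the mutant arrays and 9.59, 9.64 and 9.45 in wild type (log2 fold change 0.00, 95% interval -0.35 to 0.35). Slc25a27 had 0.33 and lay below the receptor-gene level in both genotypes. The difference between the changes of Slc25a30 and Slc25a14, taken within each array, was 2.03, with all mutant arrays (-2.05 to -1.46) above all wild-type arrays (-4.31 to -3.43). An exact two-sided permutation test gave p = 0.1, the smallest that 3 against 3 arrays allow (adjusted p = 0.16 over 8 pairs of related carriers).

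None of the 4 carboxylate and keto acid carriers passed the test (0 of 4, and 0 at an unadjusted p under 0.05 in limma). Slc25a1, which exports citrate for lipid synthesis, stood at 6.14, 6.33 and 5.60 in the mutant arrays, against 6.63, 6.28 and 6.25 in wild type (log2 fold change -0.36, 95% interval -0.87 to 0.14). Slc25a11, the oxoglutarate and malate exchanger of the malate-aspartate shuttle, had the widest spread of the family, with 5.62, 6.73 and 5.05 in the mutant arrays, against 5.74, 5.44 and 5.81 in wild type. Its interval of -0.76 to 1.03 excluded little. The dicarboxylate carrier Slc25a10 had 0.16, and Slc25a21, a carrier of longer keto acids, had -0.38 and lay below the receptor-gene level in both genotypes.

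Of 12 carriers of amino acids, carnitine and glutathione 1 rose (Slc25a40) and 0 fell, with 2 higher and 1 lower at an unadjusted p under 0.05 in limma. Slc25a15, the ornithine carrier of the urea cycle, stood at 9.06, 8.99 and 9.10 in the mutant arrays, against 8.41, 8.71 and 8.64 in wild type. The groups did not overlap, with a log2 fold change of 0.46 short of the threshold (SE 0.14, limma adjusted p = 0.103). Slc25a39, the glutathione relative of Slc25a40, had -0.07 (95% interval -0.43 to 0.29). The difference between the changes of Slc25a40 and Slc25a39 was 0.96, with no overlap of the groups (exact permutation p = 0.1, the smallest possible, adjusted p = 0.16).

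The aspartate/glutamate carriers Slc25a12 and Slc25a13 feed the malate-aspartate shuttle. Slc25a12 stood at 5.23, 4.52 and 4.47 in the mutant arrays, against 5.44, 5.21 and 6.15 in wild type. The groups overlapped by 0.02, and the log2 fold change of -0.86 (SE 0.30) did not pass (limma adjusted p = 0.147). Slc25a13 had -0.17, and the difference of their changes, -0.69, came with overlapping groups. The carnitine/acylcarnitine carrier Slc25a20, which admits fatty acids for oxidation, had 0.38 (95% interval -0.19 to 0.95). The glycine carrier Slc25a38 and the branched-chain amino acid carrier Slc25a44 both had -0.02. The glutamate carriers Slc25a18 and Slc25a22 had -0.19 and 0.01, and the basic amino acid carriers Slc25a29 and Slc25a2 had 0.15 and 0.06.

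Of 8 carriers of cofactors and nucleotides 1 rose (Slc25a36) and 0 fell, with 2 higher and 1 lower at an unadjusted p under 0.05 in limma. Slc25a33, the other pyrimidine nucleotide carrier, stood at 4.78, 5.07 and 4.68 in the mutant arrays, against 4.31, 4.21 and 4.24 in wild type. All mutant arrays lay above the receptor-gene level and all wild-type arrays below it. The log2 fold change of 0.59 (SE 0.15, 1.51-fold) missed the threshold with all arrays (limma adjusted p = 0.0574) and passed it without mutant replicate 3 (0.67, limma adjusted p = 0.0415). Because the wild-type mean of 4.25 is dim, the difference may be a lower bound. The change of Slc25a36 exceeded that of Slc25a33 by 1.65 within arrays, with no overlap of the groups (exact permutation p = 0.1, the smallest possible, adjusted p = 0.16). With 3 against 3 arrays this test could not pass 0.05, and the pair was chosen after the data were seen.

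Slc25a32, the carrier of folate and FAD, stood at 8.25, 8.04 and 8.08 in the mutant arrays, against 8.02, 8.29 and 8.30 in wild type (log2 fold change -0.08, 95% interval -0.42 to 0.26). Slc25a51, the NAD carrier, had all mutant arrays (6.66 to 6.68) above all wild-type arrays (6.48 to 6.56), but by a log2 fold change of only 0.15 (limma adjusted p = 0.623). Slc25a16, linked to coenzyme A, had all mutant arrays (5.21 to 5.59) below all wild-type arrays (5.82 to 6.23), with -0.57 short of the threshold (limma adjusted p = 0.102). The peroxisomal cofactor carrier Slc25a17 had -0.53, also without overlap and short of the threshold (limma adjusted p = 0.259). The S-adenosylmethionine carrier Slc25a26 had -0.15, and the coenzyme A carrier Slc25a42, dim in both genotypes, had 0.18.

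Neither iron carrier passed the test (0 of 2, with 1 higher at an unadjusted p under 0.05 in limma). Slc25a28, mitoferrin 2, stood at 5.52, 5.50 and 5.81 in the mutant arrays, against 5.53, 5.62 and 5.84 in wild type (log2 fold change -0.05, 95% interval -0.42 to 0.31). Slc25a37, mitoferrin 1, known for heme synthesis in red cell precursors, had 0.50 with no overlap (limma adjusted p = 0.188), and both its group means (4.44 in the mutant and 3.94 in wild type) were dim.

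The 9 members of less settled role include Slc25a46 and Slc25a48, and among them 1 rose and 1 fell, with 1 higher and 3 lower at an unadjusted p under 0.05 in limma. Slc25a35 had a log2 fold change of -0.62 (limma adjusted p = 0.143), and its groups were separated by 0.01. Slc25a34 had -0.38 (limma adjusted p = 0.173) and was dim in both genotypes. Slc25a43, Slc25a45, Slc25a47, Slc25a53 and Slc25a54 lay between -0.24 and 0.17.

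**Figure D2:**
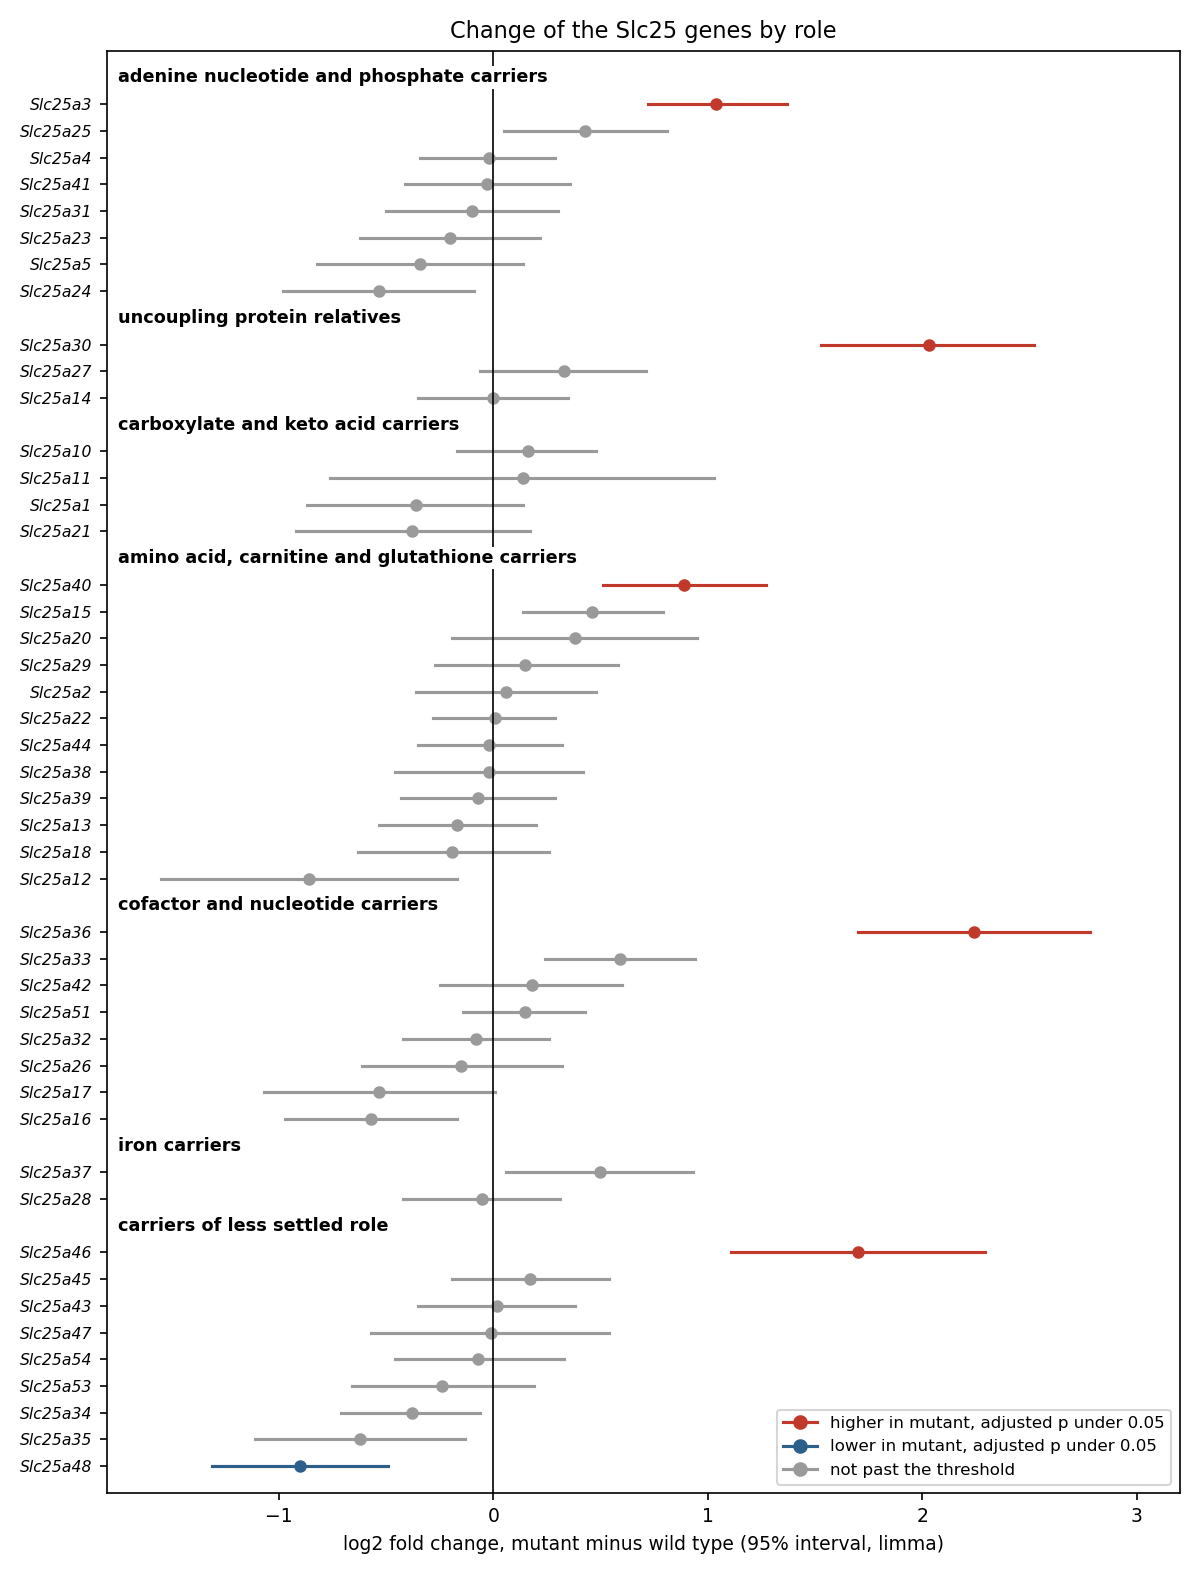
Log2 fold change (mutant minus wild type) of all 46 Slc25 genes, grouped by the solute they carry, with 95% intervals from limma. The 5 risers lie between 0.89 and 2.24, the 1 gene that fell at -0.90, and the intervals of most others include 0.

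Seen array by array, the mutant arrays differed in how many Slc25 genes left the wild-type range. On mutant replicates 1, 2 and 3, 12, 21 and 17 of the 46 genes lay above all wild-type arrays, and 16, 12 and 19 lay below. Over all genes, 23.2%, 25.8% and 37.9% lay above and 41.4%, 39.7% and 33.0% below on the same arrays. On mutant replicate 2 the Slc25 shares were 45.7% above and 26.1% below, and this difference from all genes was not tested. The groups did not overlap in 16 of the 46 genes (34.8%, against 30.7% of all genes). The mutant arrays were above in 10 (12.9% of all genes) and below in 6 (17.7% of all genes). By the unadjusted limma p under 0.05, 9 Slc25 genes were higher and 6 lower, in sum 32.6% against 24.5% of all genes (13.5% of all genes were lower). Group means at least 2-fold apart were found in 4 of the 46, namely Slc25a36, Slc25a30, Slc25a46 and Slc25a3, and in 6.03% of all genes.

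**Figure D3:**
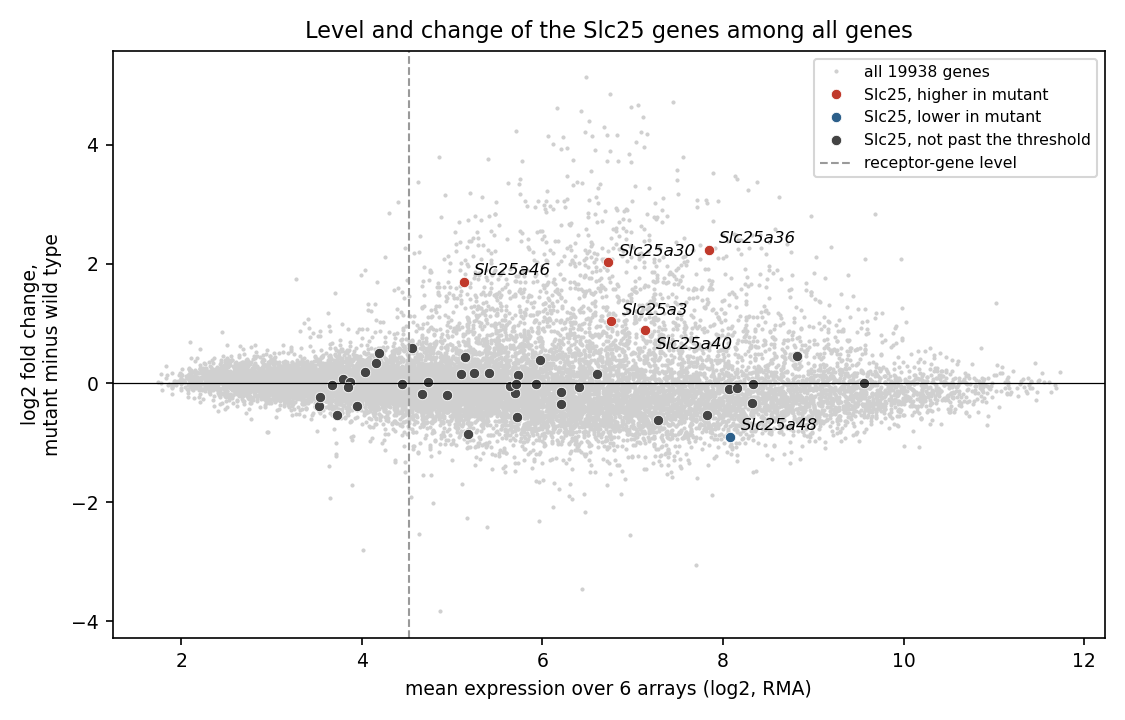
Mean log2 expression over the 6 arrays (horizontal) against log2 fold change (mutant minus wild type, vertical) for all 19938 genes in grey and the 46 Slc25 genes as large points. The called Slc25 genes lie to the right of the receptor-gene level of 4.52 (dashed), and most of the others lie close to 0 at every level.

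The calls of Slc25a36, Slc25a30, Slc25a46 and Slc25a3 held in each of the 6 fits that left out 1 array. Their log2 fold changes then ranged over 2.08 to 2.46, 1.81 to 2.18, 1.40 to 1.92 and 0.98 to 1.12, in that order. Without mutant replicate 3, the array that stood apart, they were 2.38, 1.95, 1.68 and 1.02, and Slc25a40 and Slc25a48 had 0.92 and -0.90, all past the threshold in limma. Slc25a40 and Slc25a48 each held in 2 of the 6 fits.

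**Figure D4:**
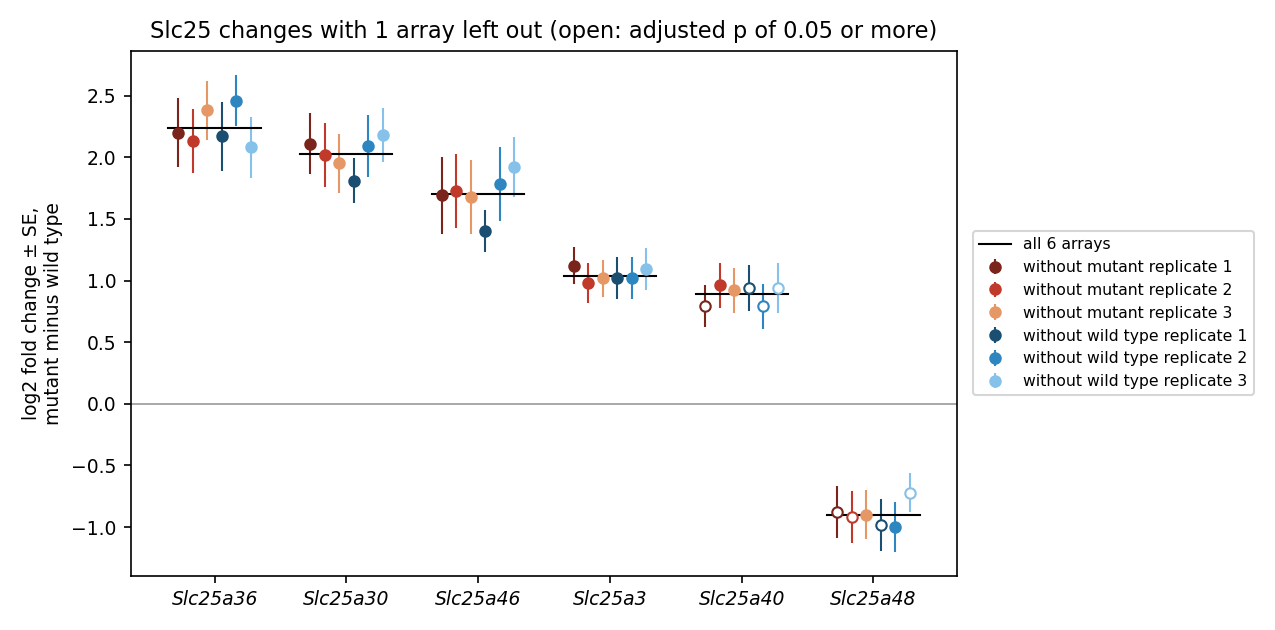
Log2 fold change ± SE (mutant minus wild type) of the 6 called Slc25 genes in fits that leave out 1 array, with filled points past the limma threshold, open points not past it and a black line for all 6 arrays. Slc25a40 and Slc25a48 lose the call in 4 of the 6 fits each, and no change turns its sign.

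Carrier proteins need import to reach the inner membrane, and the genes listed for it are not all specific to carriers (Tomm20, for instance). Of 15 genes of carrier import measured, 5 rose (33.3%) and 0 fell. Over all genes 6.40% rose. Among genes above the receptor-gene level, where all 15 lay by their means, 9.98% rose. The list was chosen with earlier results of these data known, and its share was not tested against these. At an unadjusted p under 0.05 in limma, 5 of the 15 were higher and 2 lower. The median log2 fold change of the 15 was -0.243, so those that did not pass lay mostly below 0. Tomm70a, the outer membrane receptor that binds carrier precursors, stood at 8.52, 8.31 and 8.17 in the mutant arrays, against 5.63, 5.73 and 5.42 in wild type. The difference of 2.74 (SE 0.16, limma adjusted p = 0.000132) was larger than that of any Slc25 gene. Tomm20, the receptor for precursors with a cleavable signal, rose by 2.41 (limma adjusted p = 0.00364), and a second probe set naming it rose by 2.20 (limma adjusted p = 0.00168). Which loci these Tomm20 probe sets read was not tested.

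Timm22, the channel that inserts carriers into the inner membrane, stood at 5.04, 5.58 and 5.13 in the mutant arrays, against 3.85, 3.73 and 3.79 in wild type. Since the wild-type arrays were all dim, its log2 fold change of 1.46 (SE 0.17, limma adjusted p = 0.00239) may be a lower bound. Timm29, a subunit of the same complex, rose by 1.59 (SE 0.18, limma adjusted p = 0.00177), and Tomm5, a small subunit of the outer membrane pore, by 0.95 (SE 0.15, limma adjusted p = 0.00835). The calls of these 5 genes held in every fit that left out 1 array. With quantile normalization, and with 1 probe set per gene, 5 genes of the list were higher and 1 was lower. The others did not pass. Among them the TIM22 subunit Agk had -0.67 (limma adjusted p = 0.116), the pore Tomm40 -0.49, and the chaperones Timm9 and Timm10, which carry precursors across the space between the membranes, -0.24 and -0.25.

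**Figure D5:**
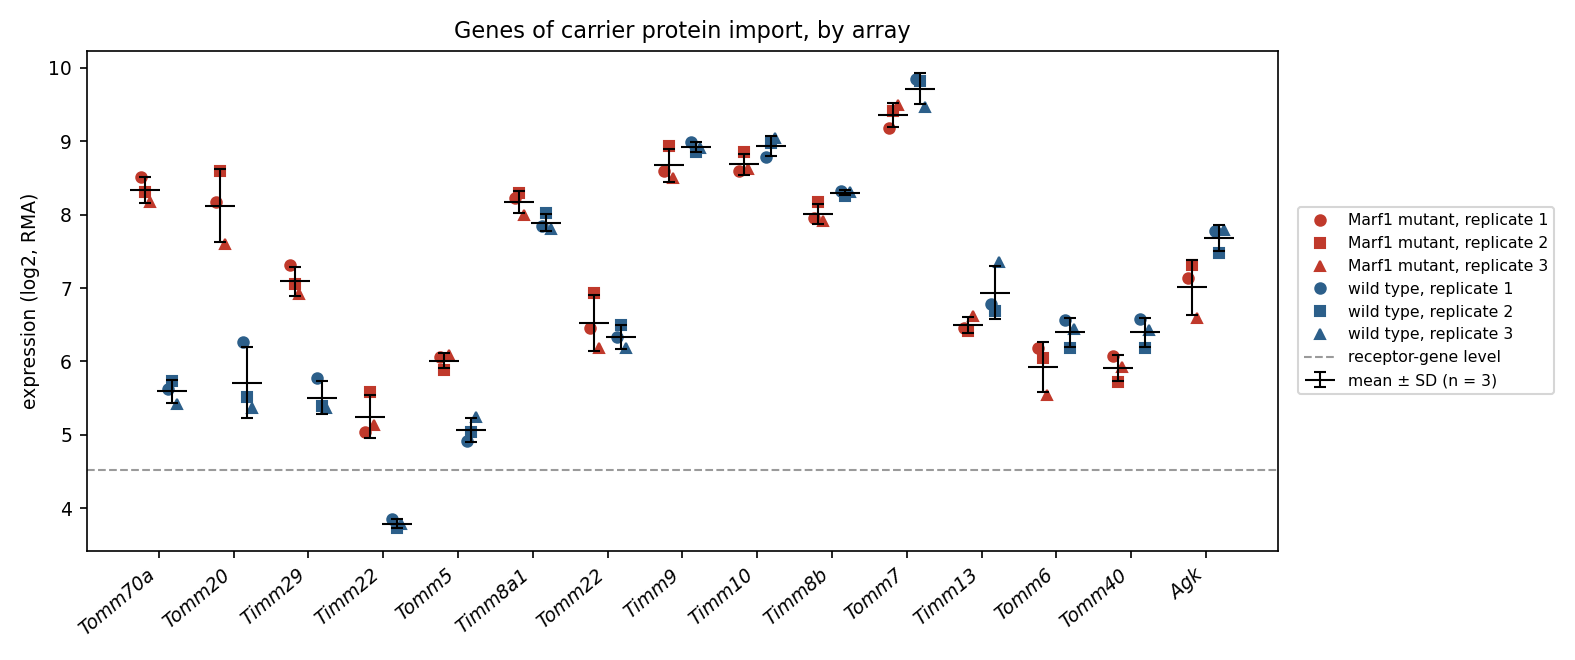
Log2 expression of the 15 measured genes of carrier import on each array, ordered by fold change, with mutant arrays to the left of wild-type arrays and bars for mean ± SD (n = 3 each). The mutant arrays of Tomm70a, Tomm20, Timm29, Timm22 and Tomm5 lie above all wild-type arrays, and the remaining 10 genes did not pass the test.

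Of 21 other genes of mitochondrial transport 0 rose and 1 fell (4.76%, against 10.4% of all genes called), with 2 higher and 5 lower at an unadjusted p under 0.05 in limma. Sfxn4, a sideroflexin of the inner membrane, stood at 6.54, 6.70 and 5.99 in the mutant arrays, against 7.34, 7.32 and 7.45 in wild type (log2 fold change -0.96, SE 0.20, limma adjusted p = 0.0278). It lost the call without mutant replicate 1 or any wild-type array. The calcium uniporter Mcu and its regulator Micu2 had -0.54 and -0.78, and the outer membrane channel Vdac2 had 0.73, none past the threshold (limma adjusted p of 0.0608, 0.0644 and 0.0639). A second probe set naming Vdac2 gave 0.74, also short of the threshold (limma adjusted p = 0.0512), and which loci the Vdac2 probe sets read was not tested. The uncoupling proteins Ucp1 and Ucp3, which share the carrier fold, were dim in both genotypes with -0.08 and -0.05.

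Of 11 measured markers of cumulus and granulosa cells, which surround the oocyte and were stripped off, 2 rose and 0 fell. That is 18.2% called, against 10.4% of all genes, with the same counts at an unadjusted p under 0.05 in limma. The 2 that rose were Nr5a2 (1.46, limma adjusted p = 0.00251) and Kitl (1.94, limma adjusted p = 0.000731). The summed linear level of the list was 1277 to 1637 in the mutant arrays and 610 to 684 in wild type, and without Nr5a2 it was 220 to 281 in the mutant and 210 to 240 in wild type. Amh, Fshr, Cyp11a1, Hsd17b1 and Slc38a3 lay below the receptor-gene level over all arrays. Foxl2, Inha, Inhba and Inhbb lay above that level and changed by -0.06, -0.24, -0.09 and -0.17, none past the threshold. Of the 11 granulosa and cumulus markers, 7 had a negative change and 4 a positive one. Of 10 markers of theca, stroma, blood, immune and endothelial cells 1 rose (Pdgfra, 0.67) and 1 fell (Pecam1, -1.07). That is 20% called, against 10.4% of all genes. These calls were lost in 6 and 2 of the 6 fits without 1 array, in that order. The summed linear levels of this list were 299 to 337 in the mutant and 350 to 391 in wild type. The part of other cells in the Slc25 changes was not tested.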

How the data were processed

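Expression was measured on 6 arrays, 3 of Marf1-mutant and 3 of wild-type fully-grown oocytes, with group and replicate read from the titles. The authors deposited log2 expression per probe set, made with GCOS, Affymetrix Expression Console 1.1 and RMA per the submitters' processing notes. The sources used here name no genome build for the array. All 35556 probe sets were used as deposited. Platform annotation named 1 gene for 21789 of them, 50 of which named the 46 Slc25 genes (3 genes had several), and no probe set naming several genes named a Slc25 gene. All 46 matched RefSeq (GRCm38.p6) by Entrez ID.

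The test of genotype was limma's (lmFit, then eBayes; limma 3.58.1, R 4.3.3), two-sided, mutant minus wild type, with no other term. Benjamini-Hochberg adjustment ran over all 35556 probe sets with 0.05 as the threshold, and 95% intervals used the moderated errors. The number of arrays limits the precision.

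Values by array were given for Slc25 genes past the threshold or changed at least 2-fold and for the member with the highest mean in each of 7 role groups, and other members and list genes described were chosen after their values were seen. The members, role groups, marker and transport lists were chosen with earlier results of these data known. The 8 pairs of related carriers and the promoter motifs were chosen after the data were seen. Alternatives were 3 normalizations, a filter on low rows, 1 probe set per gene, the other probe set of a gene, the replicate number as a block, another variance prior and each array left out. Same-numbered mutant and wild-type arrays deviated from their group means with correlations of 0.147, -0.0992 and 0.0267, so the numbers were not taken to pair the samples.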

Additional observations from a re-analysis of the deposited data

How the results depend on the processing

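With quantile, median or cyclic loess normalization, with only probe sets above the median row mean, with another variance prior (trend and robust) and with the replicate block, the same 6 Slc25 genes were called, 5 higher and 1 lower in the mutant. The replicate numbers were not taken to pair the samples, and with the replicate block 1946 probe sets were called over the array, against 2765 without it. Fitting 1 probe set per gene called 8 Slc25 genes, the 6 and also Slc25a33 (adjusted p = 0.0213) and Slc25a16 (adjusted p = 0.0406), so that 2 were lower. Taking the probe set with the lowest mean left 5, without Slc25a40. Leaving out 1 array gave 4 to 7 called, 4 to 6 higher and 0 to 1 lower. The genes of carrier import gave 4 to 6 calls under every alternative run. Of these, 1 was lower under quantile normalization and with 1 probe set per gene, and 0 otherwise. The 4 came from the fit above the median row mean, which kept 14 of the 15 genes. The other mitochondrial transport genes, 1 called in the main comparison, had 4 with quantile normalization, 0 with median centring, 2 with cyclic loess, 5 above the median row mean, 5 with 1 probe set per gene, 0 with the replicate block, 2 with the other variance prior and 0 to 3 with 1 array left out. The cause was not tested, beyond that the fits above the median row mean and with 1 probe set per gene adjust over fewer rows. No called change turned its sign. Dim signal limits Slc25a46, Slc25a33 and the 12 Slc25 genes below the receptor-gene level, because no background reading comes with these log2 values.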
